A study of Mus musculus with 8 samples.

Results

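The high mobility group (HMG) genes described here are the 7 rows of the deposited matrix named Hmgb1, Hmgb2, Hmgb3, Hmgn1, Hmgn2, Hmgn3 and Hmga1, of 31058 genes and reporter elements in all. They were taken by name, and all 7 were present. In the 14 classes of cells compared below they were counted as 126543 UMIs (unique molecular identifiers, which count captured transcripts) for Hmgb1, 57698 for Hmgb2, 16778 for Hmgb3, 39939 for Hmgn1, 101854 for Hmgn2, 19026 for Hmgn3 and 812 for Hmga1. On GRCm38 (GENCODE M21) Hmgb1 lies at chr5:149046702-149184489 on the minus strand, Hmgb2 at chr8:57511907-57515999 on the plus strand, Hmgb3 at chrX:71555918-71560676 on the plus strand and Hmga1 at chr17:27556497-27563674 on the plus strand. Hmgn1 lies at chr16:96120618-96127729, Hmgn2 at chr4:133964738-133968650 and Hmgn3 at chr9:83109948-83146685, all on the minus strand. The cells came from Ki67TD-NES mice, heterozygous for Ki67-creERT2, Nestin-GFP and tdTomato on a mixed C57BL/6J and CD1 background, so that GFP marked cells with an active Nestin transgene and tamoxifen turned on tdTomato permanently in dividing cells and their progeny. All mice carried these alleles and received tamoxifen by gavage for 6 days before culling on day 8. The dentate gyrus was dissected from a pool of male and female mice for each experiment, and GFP+ cells with and without tdTomato were sorted for droplet RNA sequencing. There was 1 experiment at 1 month of age, 3 at 2 months and 3 at 6-8 months, giving 8 libraries from 7 experiments, because the first experiment at 2 months was split by tdTomato into separate libraries and the label of its tdTomato+ library also names double-negative cells. The chemistry was Version 2 at 2 months and Version 3 at 1 month and 6-8 months, so that in any comparison with 2 months the effects of age and chemistry cannot be told apart.

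HMG proteins are small, abundant chromatin proteins that bind DNA or nucleosomes with little preference for sequence and change how chromatin is folded. The HMGB proteins carry HMG boxes that bend DNA, and HMGB1 released from cells is also an alarm signal. The HMGN proteins bind the nucleosome core and weaken the hold of linker histones, and the HMGA proteins bind AT-rich DNA through AT hooks. HMGB1 and HMGB2 are well known from dividing cells, and in the hippocampus their genes are read in studies of neurogenesis, the path from quiescent neural stem cells (NSCs) through intermediate progenitors (IPCs) and neuroblasts to granule neurons.

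A limit of over 500 genes and less than 10% mitochondrial counts left 24376 of 26036 barcodes. Of the cells left, 22006 passed a gate that counted the distinct marker genes detected in each cell. No HMG member was a marker. Besides cells between the limits of 2 states, the gates gave 2042 quiescent NSCs, 249 cycling NSCs, 778 non-cycling and 914 cycling IPCs, 705 early and 223 late neuroblasts, 1207 astrocytes, 5183 oligodendrocyte precursors (OPCs), 305 cycling OPCs, 283 newly formed and 6668 mature oligodendrocytes, 411 endothelial cells, 893 mural cells and 688 microglia. Cycling cells were those with at least 5 (Version 2) or 10 (Version 3) of 26 S phase and 25 G2/M marker genes. As the gates require, the classes held the markers of their names (a mean of 5.31 of the NSC markers in quiescent NSCs and 4.91 of the astrocyte markers in astrocytes). These means are therefore no separate check of the classes. The IPC states also differed in markers of the neighbouring stages. Non-cycling IPCs held a mean of 5.77 neuroblast markers beside 3.08 IPC markers, as against 5.74 neuroblast markers in early neuroblasts, and 1.40 NSC markers. Cycling IPCs held 3.32 neuroblast, 3.56 IPC and 3.22 NSC markers. These marker counts were not made at equal depth. When cells were clustered without the members but with cell cycle genes left in, 1924 of 2042 quiescent NSCs but 5 of 249 cycling NSCs fell in the quiescent NSC clusters. Of 914 cycling IPCs, 33 fell in the non-cycling IPC clusters. Of the other cycling NSCs, 104 fell in the cycling IPC clusters and 140 in mixed clusters that could be given no class. Library totals were 4861883 to 43826338 UMIs, the median kept cell had 2390 UMIs with Version 2 and 6608 with Version 3, and the median cell had 8549.5 UMIs in cycling IPCs, 6229.5 in non-cycling IPCs, 4199 in quiescent NSCs and 2905 in early neuroblasts. Among kept cells, 49 barcode sequences occurred in over 1 experiment. UMIs were summed per experiment and class and are given as CPM, its share of that sum on the usual CPM scale, as mean ± SD over experiments; levels of different genes are not compared with each other. Classes were compared with edgeR's quasi-likelihood test, with the experiment as a block and Benjamini-Hochberg adjusted p-values over all genes tested, and a call is an adjusted p under 0.05.

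The level of 5 members was highest in cycling IPCs: Hmgb1 (3310 CPM), Hmgb2 (3905), Hmgb3 (718), Hmgn1 (1187) and Hmgn2 (6224). Hmga1 was highest in cycling NSCs at 53.8 CPM, and Hmgn3 was highest in astrocytes at 448 CPM. The lowest class was astrocytes for Hmgb1 (494 CPM), mature oligodendrocytes for Hmgb2 (27.2) and Hmgn1 (90.2), microglia for Hmgb3 (1.01) and Hmgn3 (14.5), endothelial cells for Hmgn2 (109) and mural cells for Hmga1 (1.25). Microglia were measured in 2 experiments only, with Hmgb3 at 0 and 2.02 CPM. From the highest to the lowest of 14 classes the mean level of Hmgb1 therefore spanned 6.70-fold, of Hmgn1 13.2-fold, of Hmgn2 57.3-fold and of Hmgb2 144-fold. Every member except Hmgb3 and Hmga1 was counted in every class of every experiment. Neighbours in the order of the classes mostly overlapped between experiments, in 11 of 13 neighbouring pairs for Hmgb1 and Hmgn1, 10 of 13 for Hmgb2, 12 of 13 for Hmgb3, Hmgn2 and Hmgn3 and 13 of 13 for Hmga1. The steps without overlap included, for Hmgb2, those from cycling NSCs to cycling OPCs and from cycling OPCs to non-cycling IPCs, and, for Hmgn2, the step from cycling NSCs to non-cycling IPCs.

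**Figure D1:**
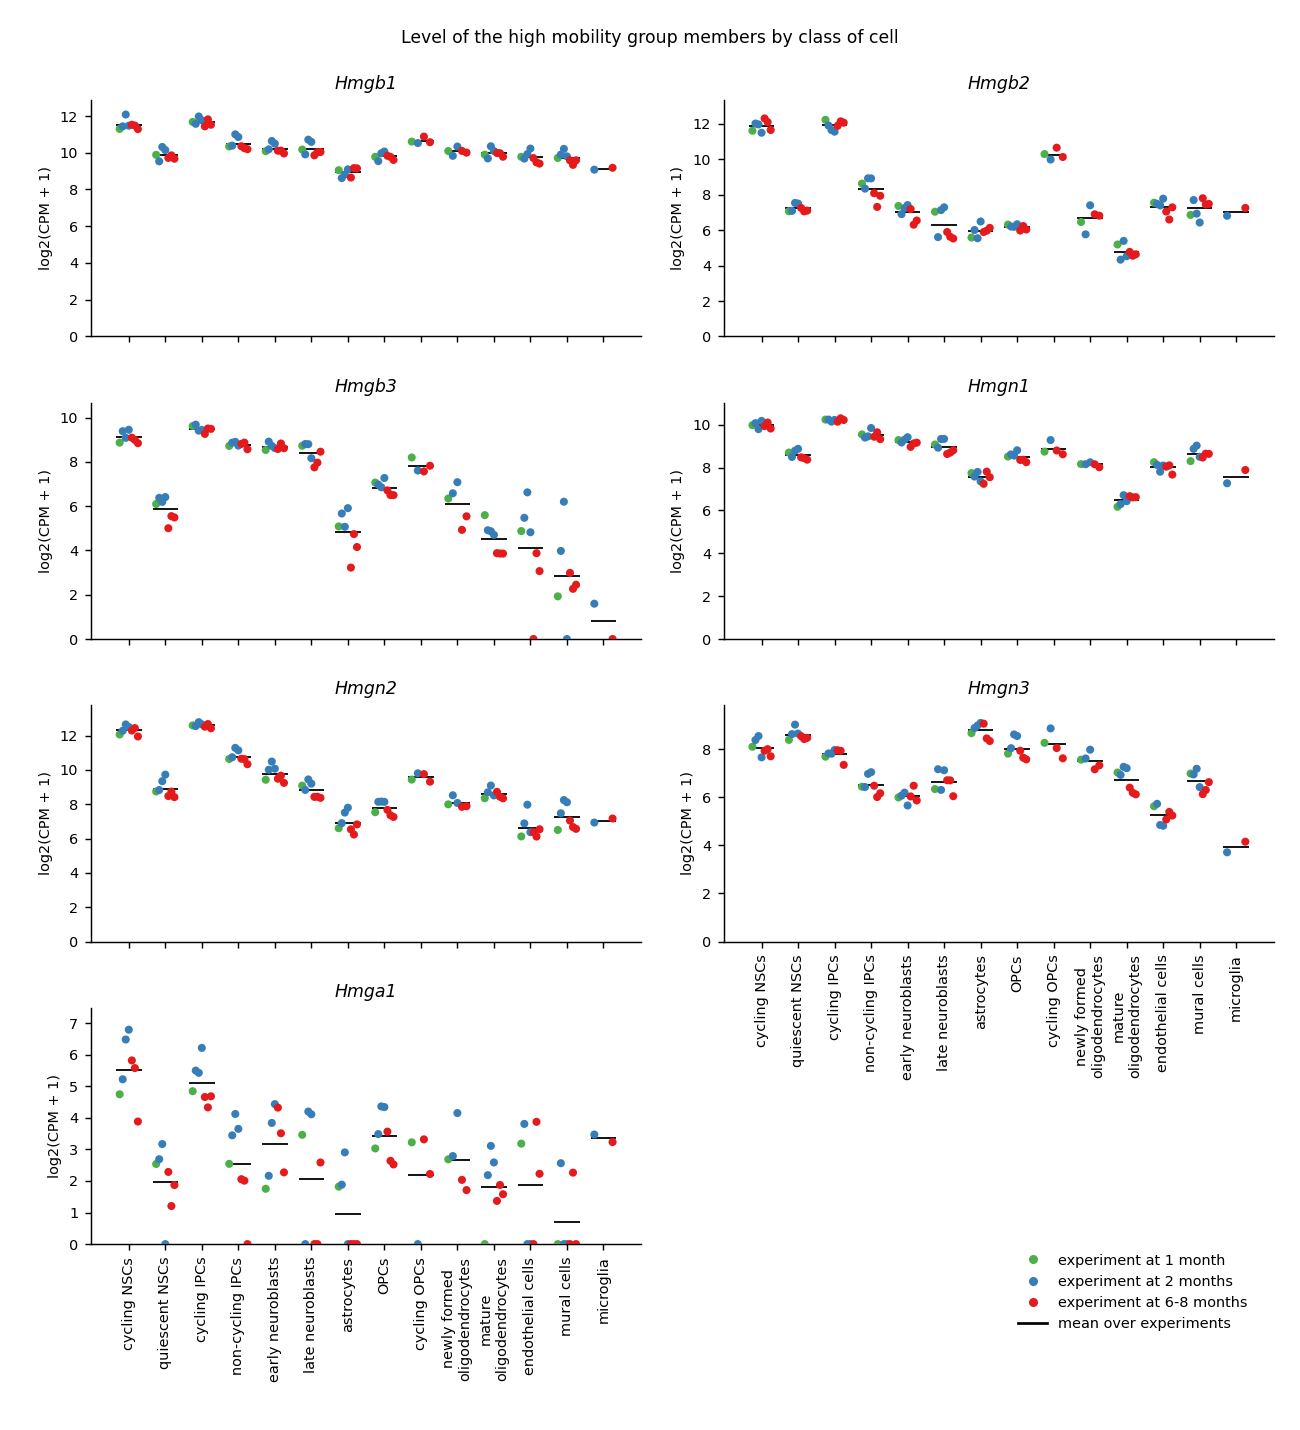
Level of each HMG member in 14 marker-gated classes, as log2(CPM + 1), with 1 point per experiment coloured by age and a bar at the mean of the points. Hmgb2 and Hmgn2 stand high in the cycling classes, Hmgb3 is spread from 718 CPM in cycling IPCs to 1.01 in microglia (n = 2), and Hmgn3 is highest in astrocytes and quiescent NSCs.

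The first comparison asked which members differ with cycling state among cells gated as one type, and in IPCs, the Eomes- and Neurog2-expressing progenitors that give rise to neuroblasts, all 7 members were higher in cycling than in non-cycling cells. Across all 5668 genes tested, 30.7% were called higher. The cycling IPCs held fewer neuroblast markers (a mean of 3.32 against 5.77) and more NSC markers (3.22 against 1.40), so the states differed in stage as well as in cycling, and the part of stage in these differences was not tested. The experiments of the classes did not overlap for any of the 7, and each was higher in 7 of 7 experiments. How many of all genes were without overlap was not counted for this or the later comparisons of classes. Among the HMGB members, Hmgb2 had 3004 CPM at the lowest, 3823 at the median and 4779 at the highest of 7 experiments in cycling IPCs, against 157, 323 and 483 in non-cycling IPCs. This was a 12.2-fold difference (log2 3.61, SE 0.13, adjusted p = 3.56e-20). Hmgb1, the HMGB member also known as an alarm signal, averaged 3310 ± 432 CPM (SD, n = 7) in cycling and 1463 ± 344 in non-cycling IPCs, a log2 difference of 1.20 (SE 0.06, adjusted p = 4.54e-17). Hmgb3 differed less, with 718 ± 68.5 against 440 ± 34.7 CPM (log2 0.73, SE 0.06, adjusted p = 2.33e-11). Of the nucleosome-binding members, Hmgn2 ranged from 5503 to 7040 CPM (median 6181) in cycling and from 1288 to 2493 (median 1607) in non-cycling IPCs, which was 3.56-fold higher (log2 1.83, SE 0.06, adjusted p = 1.45e-21). Hmgn1 was higher by 0.70 on the log2 scale (SE 0.05, adjusted p = 2.04e-12) and Hmgn3 by 1.28 (SE 0.09, adjusted p = 3.36e-13). Hmga1, the AT-hook member, was sparse, with 36.5 ± 18.8 CPM in cycling and 6.99 ± 5.81 in non-cycling IPCs (log2 2.56, SE 0.27, adjusted p = 1.50e-09). It passed the filter on detection only through cycling IPCs (21.2% of cells, against 2.96%), so its call adds no support to the count of 7, and with no filter the difference was 2.65. Its near-identical paralog Hmga1b had 108 UMIs in these classes, so that reads of this pair may be split between them and the value of Hmga1 is uncertain.

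In cells gated as NSCs, the radial glia-like cells at the start of the lineage, 6 of 7 members were higher in cycling than in quiescent cells and Hmgn3 was lower, in 7 of 7 experiments each. Of all 5645 genes tested 31.2% were called higher and 32.4% lower (1764 and 1829 genes, or 2445 and 1322 when scaled by total UMIs, which moved the median of all genes to 0.242). Hmgb2 had 2879 to 5042 CPM (median 3985) in cycling NSCs and 132 to 184 (median 136) in quiescent NSCs, 22.1-fold apart (log2 4.46, SE 0.12, adjusted p = 5.34e-26). Hmgn2 had 3950 to 6425 CPM (median 5020) against 340 to 845 (median 427), 9.16-fold apart (log2 3.20, SE 0.12, adjusted p = 6.21e-23). Hmgb3 had 458 to 697 CPM (median 541) against 31.1 to 83.9 (median 67.4), 7.51-fold apart (log2 2.91, SE 0.12, adjusted p = 2.30e-21). These 3 members did not overlap between the states. Hmgb1 was 2.65-fold higher (log2 1.41, SE 0.10, adjusted p = 1.07e-14) and Hmgn1 2.26-fold higher (SE 0.10 of the log2 difference, adjusted p = 6.34e-13), again without overlap, and Hmga1 by 2.72 (SE 0.31, adjusted p = 1.40e-09) from 3.73 ± 2.69 CPM in quiescent cells. Hmga1 and Hmgb3 passed the filter only through cycling NSCs (31.2% and 91.1% of cells, against 1.21% and 16.4%), and with no filter their differences were 2.93 and 3.11. Their calls add no support to the count of 6. Few cycling NSCs clustered with quiescent NSCs (5 of 249). The clustering left the cell cycle genes in, so this count cannot tell cycling from other differences, whose part was not tested. Hmgn3, an HMGN member of restricted expression, went the other way: 202 to 374 CPM (median 256) in cycling and 334 to 520 (median 373) in quiescent NSCs, a log2 difference of -0.71 (SE 0.10, adjusted p = 1.34e-07), with overlapping ranges.

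The difference between cycling and quiescent or non-cycling cells, here called the cell cycle difference, was compared between NSCs and IPCs. This test was chosen after the values of both had been seen. In IPCs this difference also holds a difference in stage, whose part here was not tested. Of 6285 genes, 23.2% had a difference that was called larger in NSCs (more positive) and 22.5% one called smaller (1458 and 1412 genes, or 1993 and 1135 with total UMIs). It was larger in NSCs for 4 members: Hmgb3 by 2.26 on the log2 scale (SE 0.15, adjusted p = 5.43e-16), Hmgn2 by 1.42 (SE 0.13, adjusted p = 1.14e-11), Hmgb2 by 0.99 (SE 0.22, adjusted p = 2.75e-04) and Hmgn1 by 0.54 (SE 0.11, adjusted p = 7.79e-05). For Hmgn3 it was lower by 1.91 (SE 0.15, adjusted p = 3.61e-14), since this gene was lower in cycling NSCs and higher in cycling IPCs than in their non-cycling partners. The difference of Hmgb1 (0.26, SE 0.12, adjusted p = 0.060) and Hmga1 (0.24, SE 0.48, adjusted p = 0.729) was not called. Hmgb1 was called larger in NSCs with total UMIs (0.44, adjusted p = 9.54e-04), with filterByExpr (0.34, adjusted p = 0.0177), without the experiment at 1 month (0.32, adjusted p = 0.0408) and with Version 2 only (0.42, adjusted p = 0.0116), and not under the other alternatives, with -0.05 in thinned cells. For Hmgb3 the non-cycling partner set the contrast, with 60.9 ± 20.6 CPM in quiescent NSCs and 440 ± 34.7 in non-cycling IPCs, while the cycling states stood at 554 ± 93.7 and 718 ± 68.5.

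**Figure D2:**
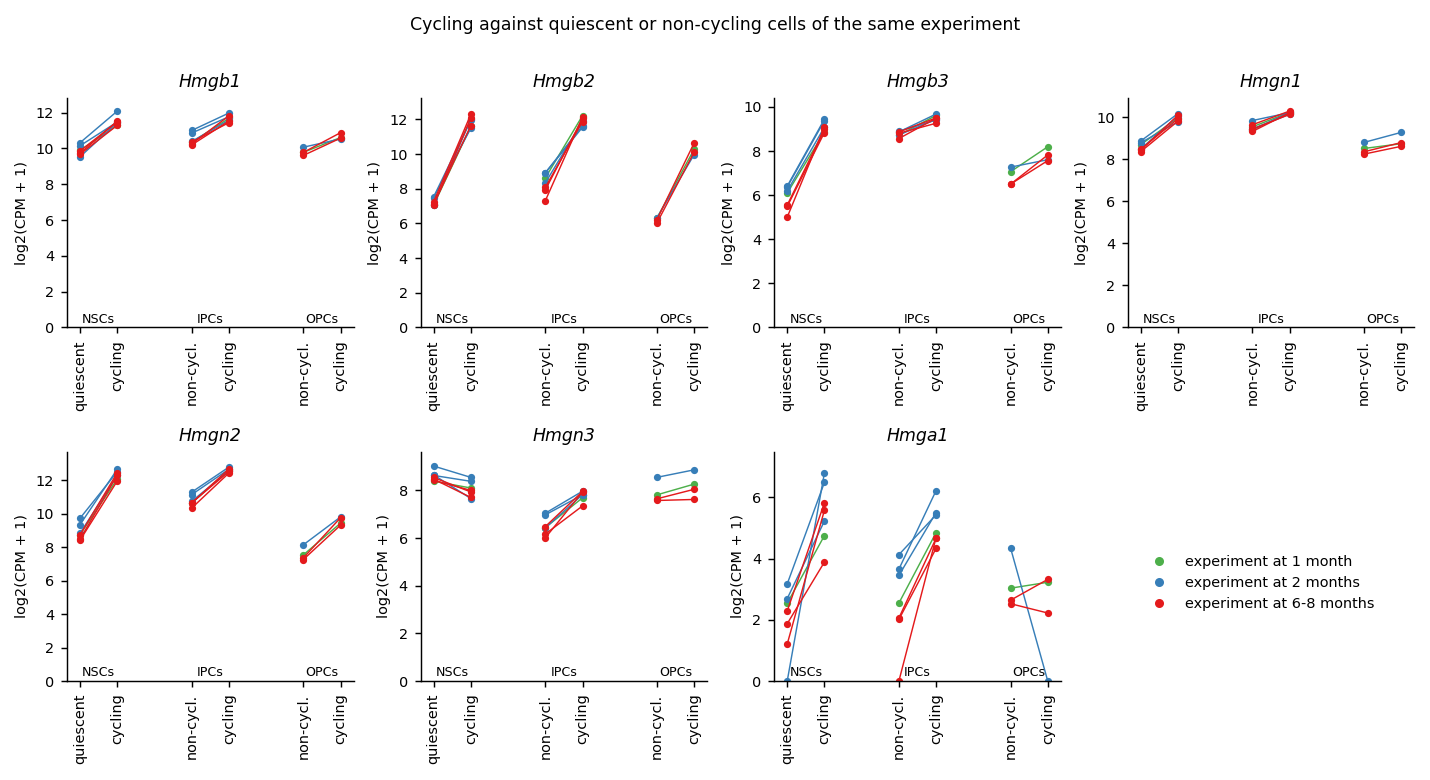
Level of each HMG member, as log2(CPM + 1), in quiescent or non-cycling cells and in cycling cells of the same experiment, joined by a line and coloured by age, for NSCs, IPCs and OPCs. Lines rise in every experiment for Hmgb1, Hmgb2, Hmgb3, Hmgn1 and Hmgn2, whereas for Hmgn3 they fall in NSCs and rise in IPCs.

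OPCs, the dividing glial precursors marked by Pdgfra and Cspg4, gave a comparison outside the neuronal lineage in the 4 experiments with at least 10 cycling cells. By edgeR 6 of 6 members tested were called higher in cycling OPCs, against 17.8% of 6490 genes. By DESeq2 5 of 6 members and 645 of the 6490 genes were. Hmgb2 had 1250 CPM at 1 month, 1009 in the third experiment at 2 months and 1604 and 1114 in experiments 2 and 3 at 6-8 months in cycling OPCs. In non-cycling OPCs of the same experiments it had 78.4, 79.4, 74.1 and 64.6 CPM. The states lay far apart, 17.9-fold (log2 4.16, SE 0.07). Hmgn2 had 691, 893, 864 and 636 CPM in cycling and 185, 281, 163 and 152 in non-cycling OPCs (log2 2.10, SE 0.07). Hmgb3 was higher by 1.20 (SE 0.08), Hmgb1 by 0.93 (SE 0.06) and Hmgn1 by 0.35 (SE 0.07) on the log2 scale, and the experiments of the states overlapped for Hmgn1. Hmgn3 was higher by 0.24 (SE 0.08) in 4 of 4 experiments but with overlap, and its call was lost with DESeq2 (0.26, adjusted p = 0.186) and without the experiment at 1 month (0.16, adjusted p = 0.233) or the second at 6-8 months (0.20, adjusted p = 0.122). With only 3 residual degrees of freedom edgeR pooled the spread of all genes here, so that its p-values are too small to be read as such and are not given, which also limits the counts of calls; DESeq2 called the other 5 tested members. Hmga1 was not tested, with 5.25 ± 4.23 CPM (SD, n = 4) in cycling and 9.12 ± 6.87 in non-cycling OPCs.

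The size of the cell cycle difference was then compared between IPCs and OPCs in the same 4 experiments. The part of stage in the IPC difference was not tested here either. The cell cycle difference was larger in IPCs for 3 members, beside 8.22% of 7629 genes: Hmga1 by 2.97 (SE 0.55, adjusted p = 1.87e-04), Hmgn3 by 1.10 (SE 0.18, adjusted p = 3.93e-05) and Hmgn1 by 0.40 (SE 0.14, adjusted p = 0.0473) on the log2 scale. Hmga1 passed the filter only through cycling IPCs (21.2% of cells, against 4.61% of cycling and 3.60% of non-cycling OPCs), so its value is a description. With no filter it was 3.19. The Hmgn1 value was lost without the experiment at 1 month (adjusted p = 0.219), the second at 6-8 months (0.120) or the third at 6-8 months (0.343), and it turned to -0.10 when clusters replaced the gates. For Hmgb2 the difference between the lineages was -0.36 (SE 0.26, adjusted p = 0.387), for Hmgn2 -0.08 (SE 0.16, adjusted p = 0.809), for Hmgb3 -0.25 (SE 0.18, adjusted p = 0.369) and for Hmgb1 0.44 (SE 0.16, adjusted p = 0.0572). With clusters, Hmgb2 (-1.15), Hmgn2 (-1.52), Hmgb3 (-0.83) and Hmgb1 (-0.43) were called smaller in IPCs, so this comparison of lineages depended on how cells were classed. The clusters held other cells than the gates. Of 305 gated cycling OPCs 214 fell in the non-cycling OPC clusters, and the cycling IPC clusters also held 104 cycling NSCs. Clusters without a class held 436 of 914 cycling and 509 of 778 non-cycling IPCs.

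Within cycling neural progenitors (NSCs and IPCs together), 449 cells gated as S phase were compared with 587 gated as G2/M. The S phase gate was at most 2 (Version 2) or 4 (Version 3) G2/M genes, and the G2/M gate at least 5 or 10. No further rule on S phase genes was set. Some of these genes, such as Mcm2 and Pcna, are those by which the paper scored G1 cells. The class called S phase here may thus also hold G1 cells. All members but Hmga1 were lower in S phase in 7 of 7 experiments, against 21.1% of 5894 genes called lower (1246, beside 1204 higher, or 998 and 1491 with total UMIs). Hmgb2 ranged from 1149 to 1394 CPM (median 1267) in S phase and from 4897 to 6405 (median 5777) in G2/M, 4.78-fold lower in S phase (log2 -2.26, SE 0.05, adjusted p = 1.86e-31). The phases stood wholly apart for this gene. Hmgb1 ranged from 1872 to 2869 CPM in S phase and from 3394 to 5247 in G2/M (log2 -0.94, SE 0.04, adjusted p = 5.26e-22). The other 4 members were nearer to each other in size, at -0.62 for Hmgn3 (SE 0.08), -0.57 for Hmgb3 (SE 0.06), -0.54 for Hmgn2 (SE 0.04) and -0.51 for Hmgn1 (SE 0.05), with adjusted p-values from 3.45e-08 for Hmgn3 to 1.27e-15 for Hmgn2. Hmga1 had 44.2 ± 26.2 CPM in S phase and 36.0 ± 14.2 in G2/M (log2 0.05, SE 0.18, adjusted p = 0.854).

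Promoter sequences are shown for 3 members whose levels set the range of patterns: Hmgb2 with the largest cell cycle difference, Hmgb3 with its high level in neuroblasts, and Hmgn2 with the second largest difference in IPCs among the well measured members. Entries were found for 6 of the 7 members, all but Hmgn3. Shown are the 250 bases before the start of the gene in RefSeq (GRCm38.p6), at chr8:57511593-57511842 (plus strand) for Hmgb2, chrX:71555667-71555916 (plus strand) for Hmgb3 and chr4:133967992-133968241 (minus strand) for Hmgn2, written 5′ to 3′ on the strand of the gene. Capitals mark CCAAT boxes (CCAAT, bound by the factor NF-Y) and the cell cycle genes homology region (TTTGAA or TTCGAA), on either strand.
Hmgb2: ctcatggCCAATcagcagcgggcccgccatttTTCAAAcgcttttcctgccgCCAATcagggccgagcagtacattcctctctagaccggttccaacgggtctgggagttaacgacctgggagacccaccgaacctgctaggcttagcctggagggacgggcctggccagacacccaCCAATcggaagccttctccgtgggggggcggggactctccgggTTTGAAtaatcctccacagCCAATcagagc
Hmgb3: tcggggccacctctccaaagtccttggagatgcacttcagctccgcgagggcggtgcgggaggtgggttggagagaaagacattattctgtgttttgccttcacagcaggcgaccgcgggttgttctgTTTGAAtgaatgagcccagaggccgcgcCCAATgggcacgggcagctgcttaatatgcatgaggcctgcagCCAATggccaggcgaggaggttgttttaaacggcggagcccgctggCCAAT
Hmgn2: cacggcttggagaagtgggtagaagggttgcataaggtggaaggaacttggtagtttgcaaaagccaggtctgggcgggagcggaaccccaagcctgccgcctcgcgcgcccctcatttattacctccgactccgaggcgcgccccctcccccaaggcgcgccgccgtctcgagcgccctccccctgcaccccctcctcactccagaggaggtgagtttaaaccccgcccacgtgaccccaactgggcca
The motifs searched were these, E2F (TTTCCCGC, TTTCGCGC, TTTGCCGC or TTTGGCGC) and the TATA box (TATAAA), on both strands, and no matches of different motifs overlapped in the sequences shown. They were chosen after the members' values and the Hmgb2 promoter had been seen. Hmgb2 held 4 CCAAT boxes and 2 homology regions, Hmgb3 held 3 and 1, and Hmgn2 held none of the 4 motifs. Of the others, the first of a pair of entries for Hmgb1 held 3 CCAAT boxes and Hmgn1 held 2, with no homology region in either, and both entries for Hmga1 held none. The Hmgn2 window and both Hmgb1 windows lie inside the GENCODE intervals of these genes given above. Those of Hmgn1 and Hmga1 reach into theirs. RefSeq and GENCODE thus place these starts differently, and the counts hold for the RefSeq windows only. Among 32851 promoter windows of the same length, 33.8% held a CCAAT box, 17.1% a homology region, 1.86% an E2F motif and 12.4% a TATA box. These matches describe the letters and do not show that a factor binds there. Between S phase and G2/M, Hmgb2 and Hmgb3, with the homology region, differed by -2.26 and -0.57. Without it, Hmgb1, Hmgn2, Hmgn1 and Hmga1 differed by -0.94, -0.54, -0.51 and 0.05. A link between motif and size was not tested.

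Neuroblasts are the daughters of IPCs, here cells with at least 3 markers such as Dcx and Igfbpl1 and neither Eomes nor Neurog2. Early and late neuroblasts were also gated to at most 2 (Version 2) or 4 (Version 3) cycle genes. The 574 neuroblasts between limits or cycling were left out, and these had 722 ± 329 CPM of Hmgb2. The levels below are thus those of neuroblasts gated as non-cycling. Early neuroblasts were compared first with non-cycling IPCs, where 7.37% of 4246 genes were called lower (313, beside 369 higher, or 403 and 313 with total UMIs). The classes had similar counts of neuroblast markers per cell (means of 5.74 and 5.77) and differed in IPC markers, 1.13 against 3.08, as their gates set. The counts were made at unequal depth, with medians of 2905 and 6229.5 UMIs per cell. Similar counts therefore do not show equal expression of these markers. Of the 6 members tested, 5 were lower and Hmgb3 was not called. Hmgb2 ranged from 78.1 to 169 CPM (median 145) in early neuroblasts, against 157 to 483 in IPCs (log2 -1.32, SE 0.09, adjusted p = 2.77e-18). Hmgn2 ranged from 606 to 1433 CPM (median 812), against 1288 to 2493 (log2 -0.97, SE 0.05, adjusted p = 5.66e-23). Both were lower in 7 of 7 experiments, although the highest neuroblast values reached the lowest of the IPCs. Hmgn1 (-0.27, SE 0.06, adjusted p = 3.59e-04) and Hmgb1 (-0.23, SE 0.04, adjusted p = 8.01e-05) were lower by smaller amounts, also in 7 of 7. Hmgn3 was lower by 0.46 (SE 0.14, adjusted p = 0.0150) in 6 of 7 experiments, but not by DESeq2 (-0.45, adjusted p = 0.233), without the experiment at 1 month (-0.47, adjusted p = 0.0681) without experiment 2 at 2 months (-0.41, adjusted p = 0.0589) or without experiment 3 at 2 months (-0.38, adjusted p = 0.0685). Hmgb3 stood at 413 ± 40.9 CPM in early neuroblasts and 440 ± 34.7 in IPCs (log2 -0.07, SE 0.07, adjusted p = 0.524).

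Against the cycling IPCs of the same experiment, early neuroblasts held 57.7% ± 5.56 (SD, n = 7) of the level of Hmgb3, 49.8% ± 5.19 of Hmgn1 and 36.7% ± 4.07 of Hmgb1. They held 14.4% ± 3.63 of Hmgn2 and 3.51% ± 1.37 of Hmgb2. The lowest experiment for Hmgb1 (30.7%) was above the highest for Hmgn2 (20.4%), and the lowest for Hmgn2 (11%) above the highest for Hmgb2 (5.64%). Late neuroblasts, which express Rbfox3, Snap25 or other genes of young neurons, held 47.6% ± 11.4 of Hmgb3, 43.1% ± 9.33 of Hmgn1, 35.8% ± 5.46 of Hmgb1, 7.5% ± 1.81 of Hmgn2 and 2.45% ± 1.69 of Hmgb2. Hmgn3 stood at 30% ± 5.66 in early and 45.3% ± 10.2 in late neuroblasts. For Hmga1 the spread was too wide to place it (32.1% ± 26.0 in early and 17.1% ± 17.6 in late neuroblasts). Quiescent NSCs, outside the neuroblasts, held 8.41% ± 2.65 of Hmgb3, 32.7% ± 4.96 of Hmgn1 and 28.7% ± 3.05 of Hmgb1. They held 7.94% ± 2.53 of Hmgn2, 4.03% ± 1.33 of Hmgb2 and 177% ± 34.8 of Hmgn3. These percentages divide 1 gene's level by its own level in another class and are given as a description.

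**Figure D3:**
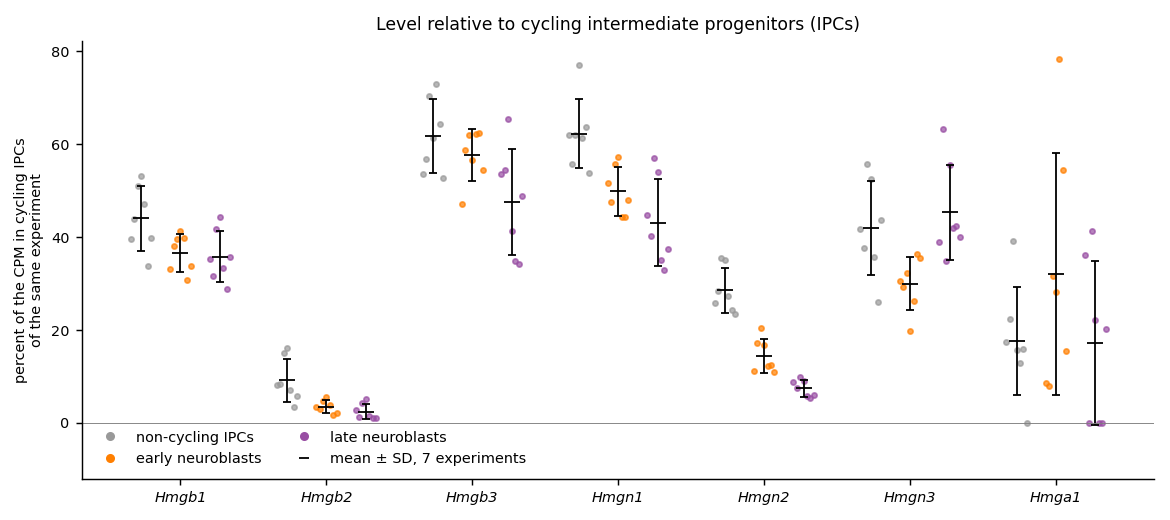
Level of each HMG member in non-cycling IPCs, early neuroblasts and late neuroblasts as a percent of its CPM in cycling IPCs of the same experiment, with points for 7 experiments and bars for the mean ± SD. Hmgb3, Hmgn1 and Hmgb1 lie between means of 35.8% and 57.7% in neuroblasts. Hmgn2 is at 14.4% and 7.5% and Hmgb2 at 3.51% and 2.45%.

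Quiescent NSCs are the cells at the other end of this lineage that were also gated as non-cycling. Against them early neuroblasts were higher in 3 of 6 members tested and lower in 2. Of 3932 genes 36.8% were higher and 39.2% lower (1448 and 1541, or 1913 and 1251 with total UMIs). Hmgb3 ranged from 370 to 481 CPM (median 392) in early neuroblasts and from 31.1 to 83.9 in quiescent NSCs, 5.71-fold higher (log2 2.51, SE 0.13, adjusted p = 1.85e-14). Hmgn3 ranged from 49.6 to 88.5 CPM (median 64.7) against 334 to 520, 7.04-fold lower (log2 -2.82, SE 0.12, adjusted p = 4.14e-16). Neither overlapped between the classes, and Hmgb3 passed the filter only through neuroblasts (75.2% of cells, against 16.4%), with 2.63 when no filter was used. The Hmgb3 call therefore adds no support to the count of 3. Hmgn2 (0.62, SE 0.10, adjusted p = 5.52e-06) and Hmgn1 (0.36, SE 0.09, adjusted p = 7.03e-04) were higher in 7 of 7 experiments. Hmgb2 was lower by 0.40 (SE 0.12, adjusted p = 0.00479), a call that scaling by total UMIs ended (-0.14, adjusted p = 0.308). Hmgb1 was not called (0.09, SE 0.09, adjusted p = 0.354) although its CPM was higher in 7 of 7 experiments, and with total UMIs it was called higher (0.35, adjusted p = 0.00102). Total UMIs put the median of all genes at 0.267 in this comparison.

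Between late and early neuroblasts few genes differed, with 1.57% of 4382 genes called lower. Hmgn2 was lower in late neuroblasts, at 331 to 696 CPM (median 455) against 606 to 1433 (log2 -0.91, SE 0.09, adjusted p = 5.62e-08), in 7 of 7 experiments. Hmgb2 was lower by 0.59 (SE 0.17, adjusted p = 0.0473) at 89.1 ± 49.7 against 131 ± 35.5 CPM, and leaving out any 1 of 5 experiments ended that call (adjusted p = 0.0501 to 0.159 for Hmgb2). Hmgn3 was higher in 7 of 7 experiments without passing the test (0.59, SE 0.19, adjusted p = 0.0762). The values of Hmgb1 (-0.04, SE 0.07, adjusted p = 0.883), Hmgb3 (-0.23, SE 0.11, adjusted p = 0.342) and Hmgn1 (-0.23, SE 0.08, adjusted p = 0.146) did not pass it either.

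**Figure D4:**
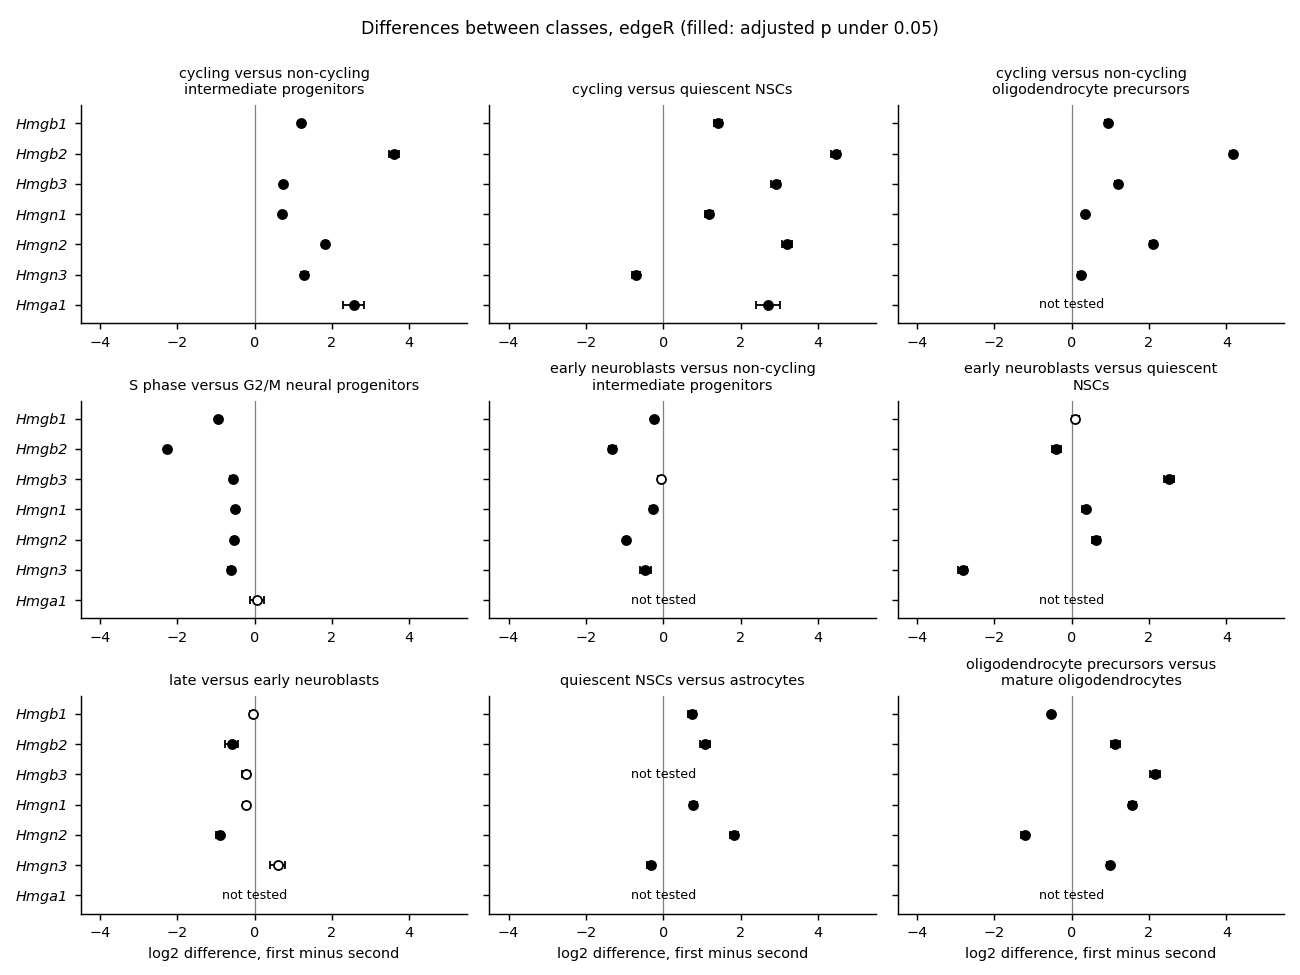
Log2 difference of each HMG member, first class minus second, in 9 comparisons of classes, with bars for the SE of edgeR's estimate and filled points where the adjusted p was under 0.05. The 3 cell cycle comparisons lie to the right of 0 except for Hmgn3 in NSCs at -0.71, and in early neuroblasts against quiescent NSCs Hmgb3 (2.51) and Hmgn3 (-2.82) lie far apart.

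Quiescent NSCs were also compared with astrocytes, which share many of their genes but do not form neurons. In quiescent NSCs 4 of the 5 members tested were called higher and Hmgn3 lower, with 28.5% of 2955 genes higher and 28.9% lower (843 and 855, or 1217 and 695 with total UMIs). Hmgn2 ranged from 340 to 845 CPM in quiescent NSCs and from 74.5 to 222 in astrocytes (log2 1.83, SE 0.11, adjusted p = 9.86e-12). Hmgb2 (1.08, SE 0.12, adjusted p = 1.65e-07), Hmgn1 (0.78, SE 0.10, adjusted p = 6.46e-07) and Hmgb1 (0.75, SE 0.10, adjusted p = 1.07e-06) were higher as well, and these 4 members did not overlap between the classes. Hmgb2 passed the filter only through quiescent NSCs (36.2% of cells, against 18.2%), so its call adds no support to the count of 4. Hmgn3 was lower by 0.32 (SE 0.09, adjusted p = 0.00600) in 5 of 7 experiments, a call lost with total UMIs (-0.17, adjusted p = 0.112). Hmgb3 and Hmga1 were detected in too few cells to be tested, at 60.9 ± 20.6 and 3.73 ± 2.69 CPM in quiescent NSCs against 32.2 ± 17.7 and 1.68 ± 2.46 in astrocytes.

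Along the oligodendrocyte lineage the members split. OPCs were higher than mature oligodendrocytes, the myelinating cells, in 4 of 6 members tested and lower in 2, with 41.1% of 4536 genes higher and 40.5% lower (1865 and 1835, or 2611 and 1251 with total UMIs, where the median of all genes was 0.364). Hmgb3 (115 ± 23.5 against 24.3 ± 12.3 CPM, log2 2.16, SE 0.13, adjusted p = 7.43e-09) and Hmgn1 (362 ± 48.3 against 90.2 ± 12.5, log2 1.57, SE 0.10, adjusted p = 1.38e-08) had the largest of the higher values. Hmgb2 (1.13, SE 0.12, adjusted p = 1.58e-06) and Hmgn3 (0.99, SE 0.08, adjusted p = 1.07e-07) followed, and none of the 4 overlapped between the classes. Hmgb2 and Hmgb3 passed the filter only through OPCs (24.4% and 35.5% of cells, against 9.80% and 9.88%), so their calls add no support to the count of 4. Without the screen for markers of other lineages the value of Hmgb2 was 0.16 (adjusted p = 0.617). Hmgn2 went the other way, with 152 to 284 CPM (median 203) in OPCs and 324 to 544 (median 365) in mature oligodendrocytes (log2 -1.22, SE 0.09, adjusted p = 8.21e-08), lower in 7 of 7 experiments and without overlap. Hmgb1 was lower in OPCs by 0.53 (SE 0.07, adjusted p = 2.04e-05) with overlapping ranges. In newly formed oligodendrocytes, the stage between them, Hmgn2 had 271 ± 55.8 CPM (SD, n = 5) and Hmgb3 76.8 ± 41.4. Outside the neural lineages, endothelial cells had 162 ± 39.5 CPM of Hmgb2 and 871 ± 175 of Hmgb1, mural cells 157 ± 50.9 and 865 ± 172, and microglia, in 2 experiments, 131 ± 28.4 and 560 ± 28.5.

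At a fixed depth of 1000 UMIs per cell, which 23718 cells reached and 658 did not, a UMI of Hmgb2 was found in 98.8% ± 1.71 of G2/M progenitors, 69.4% ± 3.52 of S phase progenitors, 22.6% ± 8.15 of non-cycling IPCs and 11.6% ± 2.29 of early neuroblasts (SD, n = 7). Mature oligodendrocytes, the class lowest in Hmgb2, gave 1.82% ± 0.90. Before thinning these shares were 100%, 98.1%, 64.9%, 34.4% and 9.80%. For Hmgb3 the shares at the fixed depth were 50.3% ± 4.09 in cycling IPCs, 32.4% ± 5.79 in early neuroblasts, 29.3% ± 3.80 in late neuroblasts and 4.31% ± 2.27 in quiescent NSCs, against 0.155% ± 0.219 in microglia (n = 2). Unthinned, they were 96.0%, 75.2%, 78.5%, 16.4% and 0.230%. For Hmgn3 they were 34.8% ± 7.01 in astrocytes, 32.3% ± 4.68 in quiescent NSCs, 20.8% ± 3.20 in cycling IPCs and 6.36% ± 3.37 in early neuroblasts, against 0.930% ± 1.32 in microglia, and 65.8%, 68.0%, 72.9%, 24.6% and 5.57% unthinned. The order of Hmgn3 between quiescent NSCs and cycling IPCs thus depends on whether depth is made equal. Hmga1 stood at 3.15% ± 1.45 in cycling IPCs and 0.849% ± 0.837 in non-cycling IPCs (21.2% and 2.96% unthinned), both near the limit of detection of single UMIs.

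Genes that act with HMG proteins were followed in 4 lists, chosen with earlier results of these data known. Nuclear chaperones and acidic chromatin partners, which bind histones or DNA beside HMG proteins, were called higher in cycling IPCs in 13 of 13 tested (median log2 difference 0.91, against -0.01 over all genes tested), in cycling NSCs in 13 of 13 (1.44 against 0.00) and in cycling OPCs in 11 of 13 (0.80 against -0.02). The shares of all genes called higher were 30.7%, 31.2% and 17.8%, and the OPC counts here and below carry the limit of that edgeR fit. Dek, a DNA-binding oncoprotein and histone chaperone, was higher by 2.89 (SE 0.07, adjusted p = 1.36e-23) in cycling IPCs, and Anp32b, an acidic histone chaperone, by 2.50 (SE 0.09, adjusted p = 2.18e-20). Linker histones, which HMGN proteins displace from nucleosomes, were higher in 6 of 6 tested in cycling IPCs (median 1.88). They were higher in 4 of 5 in cycling NSCs (1.87) and 5 of 5 in cycling OPCs (2.09). Without cycling cells fewer were tested, 4 in early neuroblasts against non-cycling IPCs, 3 in quiescent NSCs against astrocytes and 3 in OPCs against mature oligodendrocytes. Some therefore passed the filter only through cycling cells, and their calls add no support to these counts. The replication-dependent Hist1h1b led the linker histones at 5.32 (SE 0.12, adjusted p = 2.63e-24) in IPCs. In cells gated as S phase 7 of 7 linker histones were lower than in G2/M (median -2.40 against 0.01), beside 21.1% of all genes. This describes UMIs captured by 3′ libraries in gated classes, and the S phase class may also hold G1 cells. How fully transcripts of replication-dependent histones were captured in each phase was not tested. The limit of the filter applies as well to the chaperones in NSCs, of which 12 instead of 13 were tested in quiescent NSCs against astrocytes. It also applies to other HMG-box and HMG family genes, with 16, 12 and 18 instead of 23 tested in the comparisons without cycling cells named above. These family genes were divided. In cycling IPCs 12 of 23 were higher and 4 lower (median 0.33), beside 30.7% and 30.2% of all genes. In cycling NSCs 11 and 7 of 23 were (0.35), beside the 31.2% and 32.4% of all genes, and in cycling OPCs 6 and 8 of 23 (-0.03), beside 17.8% and 16.4%. Wdhd1, a replisome protein with an HMG box, was higher by 2.23 (SE 0.28, adjusted p = 4.30e-08) in cycling IPCs and by 4.59 (SE 0.43, adjusted p = 1.46e-11) in cycling NSCs.

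The same lists were followed in neuroblasts. Of the HMG list 16 genes were tested against non-cycling IPCs and 16 against quiescent NSCs, but 12 in late against early neuroblasts. Some of the 16 therefore passed the filter only through IPCs or only through quiescent NSCs, and their calls add no support to these counts. Whether other listed or named genes passed it through 1 class only was not examined. Against non-cycling IPCs early neuroblasts were lower in 8 of 16 other HMG-box and HMG family genes (median -0.17 against 0.00 over all genes, of which 7.37% were lower and 8.69% higher) and in 2 of 4 linker histones (-0.18), and of 13 chaperones 1 was higher and 2 lower (-0.08). Sox2, the HMG-box factor of stem and progenitor cells, was lower by 0.89 (SE 0.10, adjusted p = 3.83e-10), and Hmgn5, a further HMGN gene, by 1.00 (SE 0.16, adjusted p = 2.65e-06). Against quiescent NSCs, where 36.8% of all genes were higher and 39.2% lower, 5 of 16 genes of the HMG list were higher and 8 lower (-0.56), 3 of 4 linker histones higher (0.56) and 7 of 13 chaperones higher and 2 lower (0.51), with Sox11, the HMG-box factor of newborn neurons, higher by 5.36 (SE 0.17, adjusted p = 2.84e-18) and Sox9, a glial one, lower by 3.38 (SE 0.16, adjusted p = 2.52e-15). Late against early neuroblasts had, beside 1.57% of all genes lower and 2.35% higher, 3 of 12 genes of the HMG list, 1 of 4 linker histones (H1f0, -0.73, SE 0.14, adjusted p = 0.00122) and 1 of 13 chaperones lower and none higher. In quiescent NSCs against astrocytes, 9 of 12 chaperones were higher and none lower (median 0.63 against 0.04), beside 28.5% and 28.9% of all genes. In OPCs against mature oligodendrocytes 13 of 18 genes of the HMG list were higher and 2 lower (0.40 against 0.00), and 2 of 13 chaperones were higher and 6 lower (-0.07), beside 41.1% and 40.5% of all genes. Of 8 receptors and partners of extracellular HMGB1, at most 2 were detected well enough to be tested in any comparison, and Cd24a, a surface protein of neuroblasts that binds HMGB1, differed by -3.28 in cycling against non-cycling IPCs (SE 0.10, adjusted p = 3.44e-22) and was higher in early neuroblasts than in non-cycling IPCs by 0.71 (SE 0.06, adjusted p = 3.12e-14). Ager, Tlr2 and Tlr4, the classical receptors, were not among the genes tested.

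Over the means of the 14 classes, the level of Hmgb1 ran closest with Hmgn2 among the members (Pearson r = 0.93 of log2(CPM + 1)), and Hmgn3 ran with none of the others (r from 0.04 with Hmga1 to 0.48 with Hmgb3). Among 13328 genes, the most similar to Hmgb1 were Rbbp4 (r = 0.978), Pa2g4 (0.977) and Ddx39b (0.972), and to Hmgb2 were Ddx39 (0.952), Ssrp1 (0.945) and Cenpa (0.945). Hmgb3 was matched by Mzt1 (0.982), Cep57 (0.967) and Alg10b (0.967), Hmgn1 by H2afy (0.967), Hnrnph1 (0.952) and Ap4m1 (0.931), and Hmgn2 by Pa2g4 (0.956), Rln1 (0.948) and Ddx39b (0.937). Hmgn3 stood with Ndufa12 (0.970), Aldh5a1 (0.964) and Plpp3 (0.957), genes whose highest class was also astrocytes, and the sparse Hmga1 with Mre11a (0.912), Lmnb2 (0.891) and Dkc1 (0.888). These correlations describe 14 class means from the same libraries, which also differ in depth, and carry no test.

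The ages were compared within 11 classes that all experiments at 2 and 6-8 months held. Of 77 pairs of member and class, 27 did not overlap between the 3 experiments at 2 months and the 3 at 6-8 months, and all 27 were lower at 6-8 months. Over all genes at 10 CPM or more on average in these classes, 13.2% of pairs were lower without overlap and 15.2% higher. Under the same floor 25 of 70 member pairs were lower and 0 higher. These pairs repeat the same genes over classes of the same experiments and are not independent. The levels of members and other genes were not matched, so the shares are a description. The exact permutation test (two-sided) cannot go below p = 0.10 with 3 against 3, and the lowest adjusted p was 0.285, so no pair passed. Hmgn2 was lower without overlap in 7 classes, Hmgb3 in 5, Hmgn1 in 4, Hmgb1, Hmgn3 and Hmga1 in 3 each and Hmgb2 in 2. In OPCs Hmgn2 had 281, 284 and 281 CPM in the experiments at 2 months and 203, 163 and 152 at 6-8 months, with 185 at 1 month. In quiescent NSCs Hmgb3 had 81.9, 72.0 and 83.9 CPM at 2 months and 31.1, 45.8 and 43.9 at 6-8 months, with 67.4 at 1 month. The value at 1 month, which shares its chemistry with 6-8 months, lay on the 6-8 months side of the 2 months range in 16 of the 27 pairs, within that range in 10 and beyond it in 1. In cycling IPCs only Hmga1 was without overlap (53.2 ± 17.5 CPM at 2 months and 22.7 ± 3.11 at 6-8 months, SD, n = 3), and in cycling NSCs no member was.

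**Figure D5:**
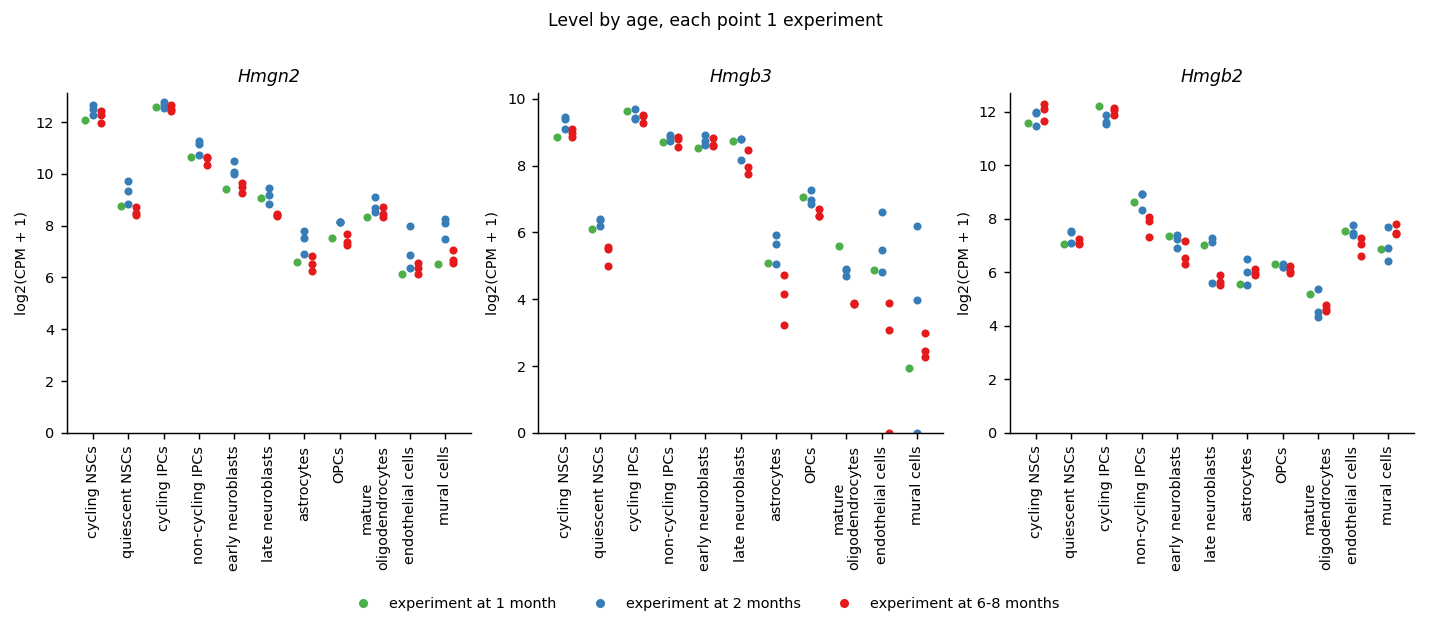
Level of Hmgn2, Hmgb3 and Hmgb2, as log2(CPM + 1), in each experiment by age over 11 classes; Hmgn2 and Hmgb3 were picked for display after their values were seen. Points at 6-8 months lie below those at 2 months without overlap in 7 classes for Hmgn2, 5 for Hmgb3 and 2 for Hmgb2, and the chemistry changed with these ages.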

How the data were processed

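Single-cell RNA-seq (10x Genomics) counts of UMIs per gene and barcode were used as the authors deposited them, as 1 merged matrix of raw counts without normalization. Per the labels and the study's methods the reads were processed with Cell Ranger 3.0.2 and cutadapt 1.18 on mm10 with reporter elements added. Kept barcodes passed limits of 500 genes (minimum) and 10% mitochondrial counts (maximum). Cells were classed by counts of distinct markers with a screen for markers of other lineages in place of a doublet caller; the limits of the gates were refined after marker detection had been seen. The members, marker lists and partner lists were chosen with earlier results of these data known. Classes with at least 10 cells were summed per experiment, the unit of replication, and the libraries of the first 2 months experiment were joined. Each experiment pooled several mice. With the experiment as a block, edgeR p-values measure how far the class differences vary between pools. That spread was partly borrowed from other genes. Beside 6 residual degrees of freedom, the prior had 22.1 for cycling against non-cycling IPCs, 49.7 for early neuroblasts against IPCs and 5.81 for OPCs against mature oligodendrocytes. Very small p-values thus do not come from the 7 experiments alone. The p-values of the ages measure the spread between pools.

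Genes detected in 20% or more of the cells of either class were tested with edgeR 4.0.16 in R 4.3.3 (TMM scaling, quasi-likelihood F test, Benjamini-Hochberg adjustment), with the experiment as a block because classes of an experiment come from the same mice. The fits were also run on simulated counts with known changes for 3 of the comparisons. That simulation used filterByExpr, the same spread for every gene and no differences between experiments, so its setting was simpler than the data. DESeq2 1.42.0, total UMIs, other filters, no block, leaving out each experiment, each chemistry, stricter gates, clusters (scanpy 1.11.5, leidenalg 0.10.2, Python 3.11.15), 20 cells, no screen and cells thinned to 1000 UMIs were alternatives. Ages were compared by exact permutation tests. Named partner genes were at most 3 per list and comparison with the largest called difference. Genes with similar patterns were the 3 of highest correlation among genes at 10 CPM or more in a class. Reads of 14 Hmgb1, 1 Hmgb3 and 2 Hmgn2 pseudogenes, which have no rows in the matrix, could be lost or assigned to the parent gene. Intervals between experiments cover sampling of pools only.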

Additional observations from a re-analysis of the deposited data

Results flagged for a closer look

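In 8 of 105 groups of 4 to 7 experiments, 1 experiment stood apart from the rest by Dixon's test, where chance gives about 1 in 20. The second experiment at 2 months was the one apart in 6 of them. There Hmgb1 had 4329 CPM in cycling NSCs (2496 to 2943 in the others) and 2869 in S phase progenitors (1872 to 2279). Hmgb3 had 72.5 in mural cells (0 to 14.8), and Hmgn2 had 250.5 in endothelial cells (68.4 to 117). Hmgn3 had 520 in quiescent NSCs (334 to 402), and Hmga1 had 6.50 in astrocytes (0 to 2.69). In newly formed oligodendrocytes Hmgn2 had 367 CPM in the first experiment at 2 months (229 to 269 in the others), and Hmga1 had 16.8 in the third (2.28 to 5.92). The values of Hmga1 and Hmgb3 rest on very few UMIs. All genes together had 153817 UMIs in these astrocytes, 82782 in these mural cells and 59542 in these newly formed oligodendrocytes of the third experiment. In cycling NSCs the second experiment had the lowest median UMIs per cell (3532). Groups also share cells, as cycling NSCs enter the S phase class. The part of counting noise was not tested.

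The cell cycle difference differed between IPCs and OPCs by the interaction test for Hmgn1 (0.40 on the log2 scale), Hmgn3 (1.10) and Hmga1 (2.97). The Hmgn1 call was lost when single experiments were left out, and its sign changed with clusters. Hmga1 passed the filter only through cycling IPCs, so its value is a description. Between NSCs and IPCs the cell cycle difference differed for Hmgb2 (0.99), Hmgb3 (2.26), Hmgn1 (0.54), Hmgn2 (1.42) and Hmgn3 (-1.91), by a test chosen after the values had been seen. The IPC states also differed in stage, whose part in both comparisons was not tested.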

How the results depend on the processing

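Of the differences of single members under the alternatives, 1148 kept their direction and side of the threshold, 18 passed it only under the alternative, 49 no longer passed it and 16 changed sign; for counts of members called, 182 stayed within 1.5 times and 22 did not. The calls of cycling against non-cycling IPCs and cycling against quiescent NSCs covered every member tested under each alternative run (6 of 6 with thinned cells, and 6 of 6 in NSCs with filterByExpr, where 1 member was not tested). Thinned cells gave 3 members called in OPCs, 3 in early neuroblasts against IPCs and 1 in IPCs minus OPCs. Over all genes, thinning took calls from 2221 to 199 in cycling against non-cycling OPCs and from 1413 to 108 in IPCs minus OPCs. For late against early neuroblasts, total UMIs, DESeq2, filterByExpr, Version 3 only, Version 2 only, a stricter gate, at least 20 cells and thinned cells each left 1 member called, no screen for other lineages gave 4, and leaving out 1 experiment gave 1 to 2. Clusters gave 6 for IPCs minus OPCs. The shares of all genes called are not given for each of these settings, so the counts are not read as results about the members. For the ages, leaving out 1 experiment gave 30 to 43 pairs without overlap, 43 without the first experiment at 2 months. Leaving out an experiment can only narrow a range, so this count could not fall below 27 and is no check of it.

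Without the block for the experiment, 2 members were called in early neuroblasts against IPCs, 0 in late against early neuroblasts (Hmgn2 -0.96, adjusted p = 0.0650) and 1 in IPCs minus OPCs (where Hmgn2 was 0.00). Over all genes, calls without the block went from 682 to 73 and from 172 to 7 in the neuroblast comparisons.

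Signs changed for values that had not passed the test: Hmga1 in S phase against G2/M (leaving out 1 experiment gave -0.06, without the third at 2 months, to 0.18; it was -0.01 without the second at 6-8 months) and Hmgb1 in late against early neuroblasts (0.00 with at least 20 cells, 0.05 thinned). In IPCs minus OPCs they changed for Hmgb1 (-0.43 with clusters), Hmgb3 (0.02 thinned), Hmgn2 (0.17 with no filter, 0.10 with filterByExpr, leaving out 1 experiment -0.13 to 0.04, the latter without the second at 6-8 months, 0.20 thinned) and the called Hmgn1 (-0.10 with clusters). In NSCs minus IPCs they changed for Hmgb1 (-0.05 thinned) and Hmga1 (leaving out 1 experiment -0.08, without the second at 6-8 months, to 0.60, -0.36 with Version 3 only, 0.00 with a stricter gate). The causes were not tested. Thinning and the filters change how many genes and UMIs are tested: over all genes, calls in cycling IPCs ranged from 467 thinned to 5472 with no filter around 3453, in cycling NSCs from 635 to 5814 around 3593 and in OPCs against mature oligodendrocytes from 853 to 10664 around 3700. Clusters were not run for cycling against quiescent NSCs, for the 3 neuroblast comparisons or for NSCs minus IPCs, nor Version 2 alone for OPCs, which had 1 such experiment.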
